A study of Mus musculus with 18 samples.

Results

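GFP-positive bone cells of control mice were compared with bone marrow stromal cells of the same genotype. The series profiled 3 sorted subsets of freshly isolated cells of osterix descent, each from controls and from conditional PTH1R knockouts, in 6 groups of 3 libraries at postnatal day 21. This comparison uses 6 of the 18 libraries, chosen by their titles. The GFP-positive bone group holds cells that the labels call bone cells, sorted as GFP-positive. The marrow group holds cells that the labels call bone marrow stromal cells, sorted as GFP-negative and positive for a marker written Tm. Both groups are labelled control and wild type, and both were taken at day 21. No deletion or treatment is labelled in either. The labels name neither the transgene behind GFP, the driver of a Cre, nor what Tm stands for. Whether each library holds a separate animal or a pool is not labelled either. The p-values therefore rest on library-to-library spread alone, which may be technical. Libraries of the knockout mice enter only an alternative fit of all 18 libraries.

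Osterix, encoded by Sp7, is a zinc finger transcription factor needed for osteoblasts to form. Cells in which it has been active also include hypertrophic chondrocytes of the growth plate and stromal cells of the marrow. Growth plate chondrocytes make a matrix of type II collagen and aggrecan under SOX9, and on maturing they turn to type X collagen. Marrow reticular stromal cells feed blood stem cells with CXCL12 and stem cell factor and also express leptin receptor and many genes of fat cells.

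Library totals were 19281669 to 24458754 counts in GFP-positive bone and 18012217 to 22251365 counts in marrow. Levels are CPM, counts scaled to a common effective total by the TMM method. A count of 0 still allows a level equal to 3 counts, or 0.125 to 0.161 CPM. Of 14100 genes tested, 8692 (61.6%) passed an adjusted p of 0.05 (edgeR quasi-likelihood test with the replicate number as a pair, Benjamini-Hochberg adjustment). In GFP-positive bone 4181 genes were higher (29.7% of those tested) and 4511 were lower (32.0%), and 2149 and 3017 of them differed at least 2-fold. At least 10-fold differences were reached by 561 higher and 903 lower genes. The median log2 fold change over all genes tested was -0.05. The first principal component held 87.2% of the variance and separated the groups. With so large a share of all genes called, every list count below is to be read against 29.7% higher and 32.0% lower. A log2 fold change is always GFP-positive bone over marrow, ± SE.

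Cartilage genes were abundant in the GFP-positive libraries, and bone genes less so than in marrow. Per kilobase of exon, Col2a1, the chain of type II collagen, was the most abundant gene tested in GFP-positive bone, at 10240 CPM per kilobase, against 175.1 in marrow. Sparc, osteonectin of bone and other matrices, followed at rank 2 with 7756 CPM per kilobase in GFP-positive bone and 8013 in marrow. Col1a1, the main chain of type I collagen of bone, was at rank 3 in GFP-positive bone with 6181 CPM per kilobase and at rank 1 in marrow with 24050. The cartilage matrix genes Cnmd, Comp, Matn3, Col9a3 and Chad were also among the 10 most abundant genes in GFP-positive bone, behind these bone genes. Summed as a share of the library total, the 6 chondrocyte markers made up 98700, 95600 and 118000 CPM in GFP-positive bone and 1840, 2340 and 2030 CPM in marrow. The 8 osteoblast markers summed to 55700, 46000 and 33800 CPM in GFP-positive bone and to 144000, 196000 and 179000 CPM in marrow. In both groups Col2a1 made up most of the chondrocyte sum and Col1a1 most of the osteoblast sum. All 6 chondrocyte markers were called higher in GFP-positive bone. Of the 8 osteoblast markers, 5 were called lower and 1, Alpl, higher, while Sp7 and Runx2 did not pass. Osteocyte markers summed to 124 to 153 CPM in GFP-positive bone, against 560 to 781 CPM in marrow. The label of bone cells is therefore not matched by higher sums of bone markers than in the marrow group. The libraries are called by their sort, GFP-positive bone, throughout. In sorted bulk samples, fewer cells of a type and less RNA per cell cannot be told apart.

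**Figure D1:**
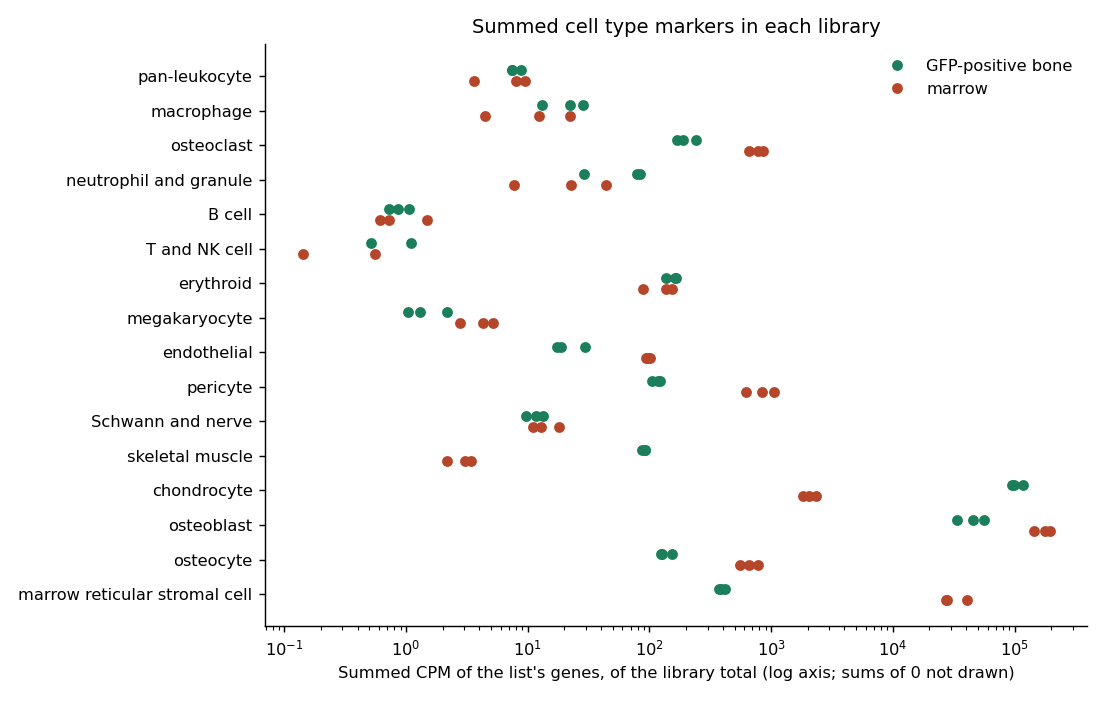
Summed CPM of each list of cell type markers in each library (log axis), with 3 points for GFP-positive bone (green) above 3 points for marrow (red). Chondrocyte markers lie at 95600 to 118000 CPM in GFP-positive bone and 1840 to 2340 CPM in marrow, and osteoblast, osteocyte and marrow reticular markers lie lower in GFP-positive bone than in marrow.

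Markers of the marrow stroma label were present in the group that bears it. The 7 marrow reticular markers summed to 370, 386 and 414 CPM in GFP-positive bone and to 40500, 27200 and 28100 CPM in marrow. Blood cells were scarce in both groups, with pan-leukocyte sums of 7.42 to 8.79 CPM in GFP-positive bone and 3.61 to 9.53 CPM in marrow. Macrophage sums (13.2 to 28.4 against 4.46 to 22.1 CPM), neutrophil sums (28.9 to 83.2 against 7.65 to 43.8 CPM) and erythroid sums (136 to 166 against 88.7 to 153 CPM) overlapped between GFP-positive bone and marrow. Within each replicate pair the macrophage and neutrophil sums were higher in GFP-positive bone, and 5 of 7 neutrophil genes tested were called higher and none lower, with a median of 1.61. The count of higher neutrophil genes was 3 without the replicate block, without pair 3 or after the length correction, 1 in the fit of 9 control libraries and 0 in that of 18. Pericyte markers were at 104 to 122 CPM in GFP-positive bone against 627 to 1060 CPM in marrow, with 5 of 6 called lower and 1 higher. Endothelial markers were at 17.3 to 29.6 CPM in GFP-positive bone against 94.1 to 102 CPM in marrow, nearly all of the marrow sum from Eng. The vessel-defining gene Kdr was at 0 in all marrow libraries. Of 4 endothelial genes tested, 1 was called higher and 1 lower, with log2 fold changes from -2.79 to 3.22. Their median was -0.55, and 0.32 without pair 2. Osteoclast markers summed to 168 to 243 CPM in GFP-positive bone and 658 to 860 CPM in marrow, while Calcr, the calcitonin receptor of osteoclasts, was at 0 in all 6 libraries. Of 4 osteoclast markers tested, 3 were called lower and none higher, with a median of -1.75. The lower count was 2 without pair 2, without pair 3 or with no filter on low counts. Skeletal muscle markers summed to 86.1 to 92.1 CPM in GFP-positive bone and 2.16 to 3.39 CPM in marrow, mostly from Tnni2, with Myh4 at 0 in all 6 libraries. All 4 muscle markers tested were called higher, with a median of 4.31. The count was 3 without pair 1, without pair 3 or after the length correction. Megakaryocyte sums stayed at or under 2.17 CPM in GFP-positive bone and 5.22 CPM in marrow, and B cell and T cell sums at or under 1.5 CPM in both. Schwann and nerve markers overlapped, at 9.65 to 13.3 CPM in GFP-positive bone and 11 to 18.2 CPM in marrow. The part of these cell types in the results below was not tested.

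The factor that gives the cells their name did not differ past the threshold. Sp7 held 166, 151 and 173 CPM in GFP-positive bone and 168, 199 and 184 CPM in marrow. The values of the groups overlap, and the log2 fold change was -0.17 ± 0.09 (edgeR adjusted p = 0.161). With library totals alone as the scale Sp7 passed as lower, at -0.26 (adjusted p = 0.0365). Runx2, the other early factor of the osteoblast lineage, had 50.8, 59.6 and 54.4 CPM in GFP-positive bone and 41.5, 54.3 and 45.6 CPM in marrow, which also overlap, at 0.23 ± 0.09 (adjusted p = 0.0536). Runx2 passed as higher in the fit of 9 control libraries (adjusted p = 0.036), with DESeq2 size factors (adjusted p = 0.0433) and after a correction for exon length (adjusted p = 0.00283). Of 15 osteoblast transcription factors tested, 2 were higher and 9 lower in GFP-positive bone, with a median log2 fold change of -0.85. The higher count was 4 in the fit of 9 control libraries and after the length correction. The higher ones were Mef2c, a factor of chondrocyte hypertrophy as well as of bone (1.58 ± 0.13), and Atf4, the factor of the amino acid response (1.43 ± 0.09). Dlx5 (-0.85), Msx1 (-1.76), Twist1 (-1.33) and Creb3l1 (-1.25) were among the lower ones.

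Pth1r, the receptor for parathyroid hormone and its related protein that is deleted elsewhere in the series, was high in the GFP-positive libraries (mm10 chromosome 9, 110722085 to 110747145, minus strand). It had 4994, 5466 and 5592 CPM in GFP-positive bone and 600, 646 and 622 CPM in marrow. The groups did not overlap, and the difference of 3.1 ± 0.10 is 8.59-fold (edgeR adjusted p = 6.58e-07).

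**Figure D2:**
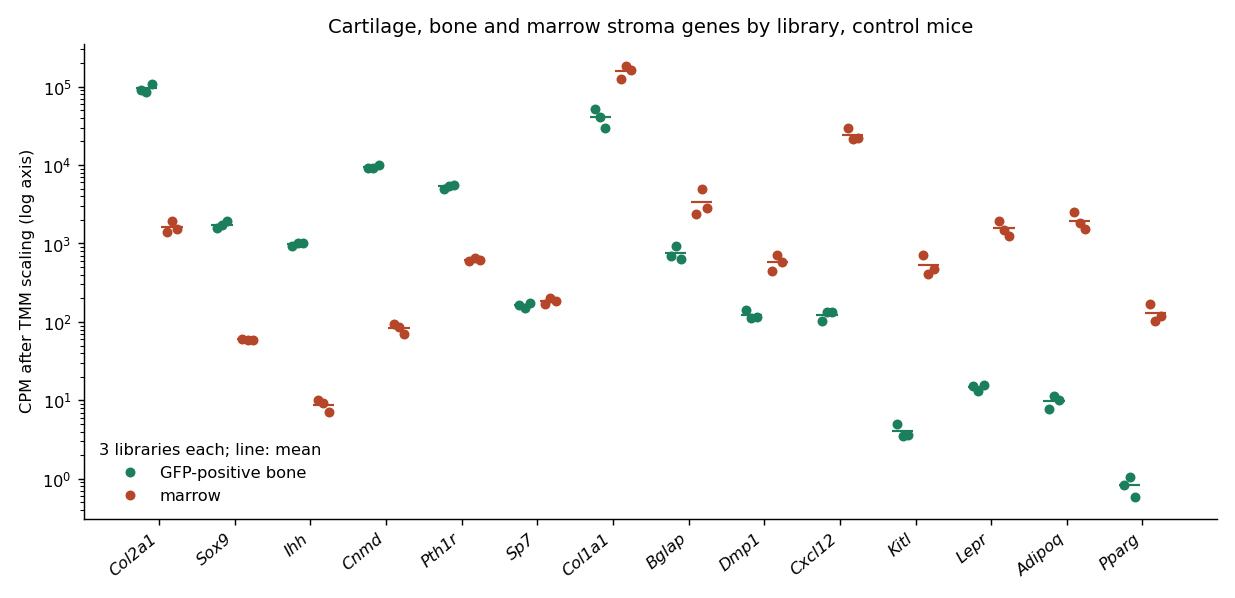
CPM of 14 genes in each of the 3 GFP-positive bone libraries (green, left) and 3 marrow libraries (red, right) on a log axis, with the mean as a line. Cartilage genes and Pth1r lie above the marrow values, Sp7 overlaps, and bone matrix and marrow stroma genes lie below them.

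Cartilage genes had the highest median fold change of the 39 lists. Of 23 members, all tested, 22 (95.7%) were higher in GFP-positive bone and none was lower, with a median log2 fold change of 6.34, against 29.7% and -0.05 over all genes. The exception was Prg4, which encodes lubricin of the joint surface and had 0.963 to 1.25 against 0.215 to 3.48 CPM in GFP-positive bone and marrow (0.26 ± 0.73, adjusted p = 0.778). Sox9, the master factor of chondrocytes, had 1583, 1729 and 1913 CPM in GFP-positive bone and 60.4, 59.7 and 59.4 CPM in marrow, 29.02-fold higher (4.86 ± 0.11, adjusted p = 2.13e-07). Its partners Sox5 and Sox6 were higher at 4.16 ± 0.27 and 3.4 ± 0.41. Marrow replicate 3 had the highest Sox6 value of its group (1.74, 1.48 and 5.53 CPM), and without that pair the log2 fold change was 4.09.

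Collagens of cartilage followed. Col2a1 (mm10 chromosome 15, 97975602 to 98004695, minus strand) had 89740, 85950 and 108200 CPM in GFP-positive bone and 1399, 1941 and 1514 CPM in marrow, 58.8-fold higher (5.88 ± 0.22, adjusted p = 1.23e-06). Col9a1, Col9a2 and Col9a3, whose product decorates type II fibrils, differed by 6.34, 6.34 and 6.45. Col10a1, the collagen of hypertrophic chondrocytes, had 2070, 2356 and 1904 CPM in GFP-positive bone and 118, 229 and 262 CPM in marrow, a smaller change of 3.45 ± 0.25. Col11a1 and Col11a2, which osteoblasts also express, were the least changed of the collagens at 2.14 ± 0.21 and 1.63 ± 0.25. With no filter on low counts Col11a2 no longer passed (adjusted p = 0.0708). In every one of these genes the lowest GFP-positive library stood above the highest marrow library.

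Noncollagenous cartilage matrix genes were higher too. Matn3, matrilin 3 of the growth plate, had 9497, 9640 and 10030 CPM in GFP-positive bone and 96.7, 94.6 and 71.8 CPM in marrow (6.8 ± 0.17). Comp, which links collagen fibrils, had 12470, 13220 and 13720 CPM in GFP-positive bone and 152, 190 and 161 CPM in marrow (6.3 ± 0.14). Acan, the large proteoglycan aggrecan, reached 1758, 1430 and 1727 CPM in GFP-positive bone and 24.2, 36.2 and 35.2 CPM in marrow (5.7 ± 0.20). Hapln1, the link protein, Chad, chondroadherin, Epyc, epiphycan, Snorc and Matn1 were higher by 6.56, 6.41, 6.75, 6.71 and 6.06. After the length correction Snorc, a short gene, stood at 6.12. Ihh, the hedgehog ligand made by prehypertrophic chondrocytes, had 942, 1018 and 1026 CPM in GFP-positive bone and 10.2, 9.19 and 7.13 CPM in marrow, 113-fold higher (6.82 ± 0.15, adjusted p = 2.34e-07).

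Promoters of 4 genes are shown as examples from 3 programmes that set the groups apart: cartilage, bone matrix and blood-cell support. For each gene the promoter with the most matches to its motif was taken. Each one shown holds a match, whereas most promoters of these lists held none, as the shares below give. Each runs from 250 bases before to 50 bases after a RefSeq start on GRCm38.p6, written 5′ to 3′ on the gene's strand. Capitals mark a match on either strand to ACAATG (the core bound by SOX proteins) in Epyc and Sox6, to TGTGGT (a RUNX core) in Bglap and to CCCNNGGG (the EBF core, N any base) in Csf1.
Epyc (chr10:97646853-97647152, plus strand): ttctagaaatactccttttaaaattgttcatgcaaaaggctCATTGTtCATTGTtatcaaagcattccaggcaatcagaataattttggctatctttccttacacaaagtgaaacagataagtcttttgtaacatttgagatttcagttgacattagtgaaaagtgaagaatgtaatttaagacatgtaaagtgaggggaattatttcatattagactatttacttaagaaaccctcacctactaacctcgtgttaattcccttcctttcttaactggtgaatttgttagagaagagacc
Sox6 (chr7:115995037-115995336, minus strand): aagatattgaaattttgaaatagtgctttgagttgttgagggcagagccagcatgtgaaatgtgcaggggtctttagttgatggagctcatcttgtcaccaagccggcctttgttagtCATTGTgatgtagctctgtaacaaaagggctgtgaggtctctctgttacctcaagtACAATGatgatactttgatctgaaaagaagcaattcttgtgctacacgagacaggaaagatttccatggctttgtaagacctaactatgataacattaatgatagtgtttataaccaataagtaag
Bglap (chr3:88384417-88384716, minus strand): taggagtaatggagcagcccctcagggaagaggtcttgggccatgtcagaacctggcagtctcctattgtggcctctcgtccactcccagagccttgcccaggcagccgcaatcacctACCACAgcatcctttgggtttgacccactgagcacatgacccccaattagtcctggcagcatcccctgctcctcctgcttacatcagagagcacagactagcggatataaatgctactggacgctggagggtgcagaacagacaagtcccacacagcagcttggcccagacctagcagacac
Csf1 (chr3:107760420-107760719, minus strand): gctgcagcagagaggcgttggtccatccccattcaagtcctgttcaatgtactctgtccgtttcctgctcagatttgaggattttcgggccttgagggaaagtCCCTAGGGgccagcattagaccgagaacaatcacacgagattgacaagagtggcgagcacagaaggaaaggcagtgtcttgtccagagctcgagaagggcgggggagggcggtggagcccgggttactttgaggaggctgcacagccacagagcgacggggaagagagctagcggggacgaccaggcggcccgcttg
The SOX letters stood in 5 of 24 promoters of 17 matched cartilage genes (20.8%), in 1 of 14 bone matrix promoters, in 1 of 10 niche factor promoters and in 12.6% of all 32851 promoters of 300 bases. The RUNX letters stood in 3 of 14 promoters of 11 matched bone matrix genes (21.4%), in 6 of the 24 cartilage promoters (25%) and in 16.8% of all. The EBF letters stood in 4 of 10 promoters of 9 matched niche factors (40%), in 2 of 19 of 12 matched reticular stroma genes, in 3 of the 24 cartilage promoters (12.5%) and in 13.7% of all. A match is a string of letters, and binding was not measured.

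Bone matrix genes went the other way. Of 15 tested, 2 were higher and 9 lower in GFP-positive bone (60.0% lower, against 32.0% of all genes), with a median of -1.27. Col1a1 had 51140, 40880 and 29670 CPM in GFP-positive bone and 125100, 185000 and 163400 CPM in marrow, 3.94-fold lower (-1.98 ± 0.26, adjusted p = 0.000552). Its partner chain Col1a2 had 14860, 12340 and 9672 CPM in GFP-positive bone and 41890, 63480 and 57130 CPM in marrow (-2.14 ± 0.23). Bglap, osteocalcin of mature osteoblasts, held 695, 935 and 626 CPM in GFP-positive bone and 2359, 4920 and 2869 CPM in marrow (-2.12 ± 0.14, adjusted p = 2.02e-05). Bglap and the near-identical Bglap2 (-2.0 ± 0.13) share sequence, so the split of reads between them is uncertain. After the length correction they stood at -2.76 and -2.72. Spp1, osteopontin, and Ibsp, bone sialoprotein, were lower at -1.27 ± 0.16 and -0.96 ± 0.21. The Ibsp call was lost without pair 2 (adjusted p = 0.0729) and with no filter on low counts (adjusted p = 0.054). Sparc, osteonectin, was abundant in both groups, at 29390, 32310 and 26450 CPM in GFP-positive bone and 24860, 35800 and 30400 CPM in marrow, and did not pass (-0.04 ± 0.15, adjusted p = 0.848). The higher members were Tnn, tenascin W of the periosteum (3.43 ± 0.32), and Omd, osteomodulin (1.2 ± 0.11).

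Mineralisation genes split evenly, with 6 higher and 6 lower of 12. Smpd3, a sphingomyelinase needed for cartilage and bone mineral, had 3770, 3414 and 4078 CPM in GFP-positive bone and 313, 527 and 469.8 CPM in marrow (3.13 ± 0.18, adjusted p = 1.19e-05). Alpl, the alkaline phosphatase that frees phosphate, was modestly higher, at 2552, 2746 and 2488 CPM in GFP-positive bone and 1344, 1779 and 1533 CPM in marrow (0.75 ± 0.10). Car3, a carbonic anhydrase, was lower (-3.39 ± 0.14), as were Phex, the protease mutated in hypophosphataemic rickets (-2.11 ± 0.14), and the phosphate carrier Slc20a2 (-2.15 ± 0.12). The median of the list was 0.07, and it changed sign with library totals alone (-0.02) and without pair 3 (-0.04). Of 9 osteocyte genes tested, 2 were higher (22.2%) and 4 lower (44.4%), shares not far from those of all genes. Dmp1, a matrix protein of osteocytes, had 141, 113 and 116 CPM in GFP-positive bone and 449, 714 and 574 CPM in marrow (-2.21 ± 0.19), and Sost, the Wnt inhibitor of mature osteocytes, was at or under 0.85 CPM in all 6 libraries and was not tested.

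Enzymes that fold and modify collagen were mostly higher although type I collagen was lower. Of 26 tested, 19 were higher (73.1%) and 6 lower. Pcolce2, an enhancer of procollagen cleavage, had 1172, 1287 and 1366 CPM in GFP-positive bone and 24.7, 28.3 and 24.4 CPM in marrow (5.63 ± 0.11). The prolyl hydroxylases P4ha1, P4ha2 and P3h2 were higher at 1.97 ± 0.10, 2.58 ± 0.10 and 3.35 ± 0.08, and the lysyl hydroxylase Plod2 at 2.14 ± 0.11. Serpinh1, the collagen chaperone HSP47, had 12700, 11930 and 12990 CPM in GFP-positive bone and 6308, 6827 and 5976 CPM in marrow (0.98 ± 0.12). Crosslinking enzymes split, with Lox (-2.38 ± 0.12) and Loxl1 (-3.2 ± 0.13) lower and Loxl2 (1.42 ± 0.24), Loxl3 (1.23 ± 0.10) and Loxl4 (3.08 ± 0.16) higher. The other lower members were the procollagen proteases Adamts2 (-3.66 ± 0.10), Adamts14 (-1.05) and Bmp1 (-1.35) with the enhancer Pcolce (-1.14). Among other collagens 5 of 17 were higher and 9 lower, and the lower count was 5 without pair 2 and with no filter on low counts. Basement membrane chains Col4a1 (4.5 to 6.79 CPM in GFP-positive bone and 344 to 575 CPM in marrow) and Col4a2 were lower, at -6.22 and -5.84. Col27a1, a fibrillar collagen of cartilage, was the most raised at 4.87 ± 0.15.

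Most blood-cell niche factors were far lower in the GFP-positive libraries than in marrow. Of 13 tested, 12 were lower (92.3%, against 32.0% of all genes) and 1 was higher, with a median of -5.62. Cxcl12, the chemokine that holds blood stem cells in the marrow (mm10 chromosome 6, 117168535 to 117181367, plus strand), had 102, 135 and 135 CPM in GFP-positive bone and 29270, 21580 and 21910 CPM in marrow, 195-fold lower (-7.61 ± 0.25, adjusted p = 9.01e-07). Kitl, stem cell factor, had 5.04, 3.52 and 3.58 CPM in GFP-positive bone and 704, 412 and 469 CPM in marrow (-7.01 ± 0.11). Il7, the growth factor of B cell precursors, had 1.4, 0.668 and 1.12 CPM in GFP-positive bone and 158, 118 and 123 CPM in marrow (-6.98 ± 0.15). Vcam1, Angpt1, Igf1, Csf1 and Gas6 differed by -6.19, -6.74, -5.62, -4.69 and -5.46. The exception was Ptn, pleiotrophin, which also acts on cartilage and bone, at 177, 119 and 119.7 CPM in GFP-positive bone and 76.1, 71.02 and 64.97 CPM in marrow (0.95 ± 0.10). Flt3l, a growth factor for dendritic cells, was low in both groups, with 0.127, 0.267 and 0.428 CPM in GFP-positive bone and 1.83, 1.81 and 2.09 CPM in marrow (-2.86 ± 0.55). Thpo, thrombopoietin, was too low to be tested.

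Receptors and factors of reticular stroma moved with them, 16 of 18 lower and 1 higher, at a median of -4.70. Lepr, the leptin receptor, had 15.3, 13.1 and 15.9 CPM in GFP-positive bone and 1935, 1499 and 1262 CPM in marrow (-6.71 ± 0.17, adjusted p = 2.87e-07). The early B cell factors Ebf1, Ebf2 and Ebf3, which reticular cells also need, were lower, at -4.43, -6.53 and -4.94. Without pair 3 Ebf2 stood at -7.13. Pdgfra and Pdgfrb, receptors for platelet-derived growth factor, were lower at -4.09 ± 0.12 and -5.76 ± 0.14. Foxc1, a factor that keeps the niche, differed far less, with 223, 208 and 235 CPM in GFP-positive bone and 499.8, 396 and 370.2 CPM in marrow (-0.92 ± 0.11). Nt5e, the ectoenzyme CD73, was the member that was higher (2.48 ± 0.10), and Ly6a, the stem cell antigen Sca-1, did not pass (2.08 to 5.92 CPM in GFP-positive bone and 1.87 to 5.47 CPM in marrow).

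Most fat-cell regulators and products were lower in GFP-positive bone. Pparg, the master factor of fat cells, had 0.847, 1.07 and 0.588 CPM in GFP-positive bone and 168, 103 and 120.1 CPM in marrow (-7.25 ± 0.21, adjusted p = 4.58e-07). Cebpa differed by -5.42 ± 0.13, while Cebpb did not pass (0.27 ± 0.12) except without pair 3 (adjusted p = 0.00584) and Klf4 was higher (2.84 ± 0.23). In all, 8 of 12 fat-cell transcription factors were lower and 3 higher. Adipoq, adiponectin, had 7.67, 11.4 and 9.999 CPM in GFP-positive bone and 2499, 1817 and 1519 CPM in marrow (-7.63 ± 0.27). Lpl, lipoprotein lipase, and Apoe were lower at -6.61 ± 0.13 and -5.83 ± 0.13. Of 20 lipid and adipokine genes tested, 14 were lower and 3 higher. The higher ones were Scd1 (2.12 ± 0.31), Fasn (1.36 ± 0.15) and Agpat2 (0.57 ± 0.11), which make and store fatty acids. The Scd1 call was lost without pair 3 (adjusted p = 0.0572) and with no filter on low counts (adjusted p = 0.0768). Plin1, the coat of mature lipid droplets, was low even in marrow, at 5.11, 6.95 and 6.01 CPM.

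Immune-facing genes of stroma followed the same direction. Complement and acute phase genes were lower in 10 of 14 tested and higher in 2, with a median of -4.32, with the largest fall in Serpina3g, a serine protease inhibitor (-6.71 ± 0.33). The complement component gene C4b had 8.3, 7.35 and 6.31 CPM in GFP-positive bone and 705, 651 and 456 CPM in marrow (-6.36 ± 0.11), and the inhibitor Serping1 was lower too (-6.26 ± 0.18). The higher members were Serpina3n (1.79 ± 0.35) and Masp1 (3.33 ± 1.21). Masp1 no longer passed without pair 1 (2.23, adjusted p = 0.176), without pair 2 (2.82, adjusted p = 0.169) or with no filter on low counts (adjusted p = 0.057), and stood at 7.73 without pair 3. Chemokines and cytokines were lower in 13 of 17 and higher in 1 (2 without pair 3), Il11, a cytokine of the IL-6 family. Il11 had 2.08, 2.98 and 2.03 CPM in GFP-positive bone and 0, 0.0952 and 0.107 CPM in marrow, 154 counts in all against 4, a ratio of 37.9 with a 95% exact counting interval of 14.5 to 141. Cxcl14 had 21.6, 15.7 and 14.3 CPM in GFP-positive bone and 1167, 984 and 1021 CPM in marrow (-5.95 ± 0.12). Cxcl9, an interferon target, was lower at -5.63 ± 0.67 but varied within marrow, at 198, 936 and 73.4 CPM, and without pair 2, which holds its highest value, it differed by -4.79. Without pair 3 it differed by -6.24, and with no filter on low counts it no longer passed (adjusted p = 0.0519). All 15 antigen presentation and interferon genes were lower, at a median of -3.27. The lower count was 14 without pair 2 or without pair 3, and 13 in the fit of 18 libraries and with no filter on low counts. B2m, the light chain of class I molecules, had 279.8, 308 and 212 CPM in GFP-positive bone and 3163, 4054 and 2343 CPM in marrow (-3.56 ± 0.10), and H2-D1 and Psmb8 differed by -4.54 and -4.64. Pan-leukocyte, macrophage and neutrophil sums, given above, overlapped between the groups, and the part of blood cells in these lists was not tested.

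Osteoclast regulators leaned to marrow, with 7 of 10 lower and 2 higher. Tnfsf11, which encodes RANKL, the inducer of osteoclasts, had 7.46, 9.85 and 5.4 CPM in GFP-positive bone and 122, 83.5 and 87.2 CPM in marrow (-3.69 ± 0.21, adjusted p = 1.49e-05). Tnfrsf11b, its decoy receptor osteoprotegerin, was higher, at 77.2, 65.1 and 67.2 CPM in GFP-positive bone and 25.3, 28.9 and 27.5 CPM in marrow (1.36 ± 0.11). The other higher gene was Ptgs2, an inducible cyclooxygenase (1.69 ± 0.24).

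**Figure D3:**
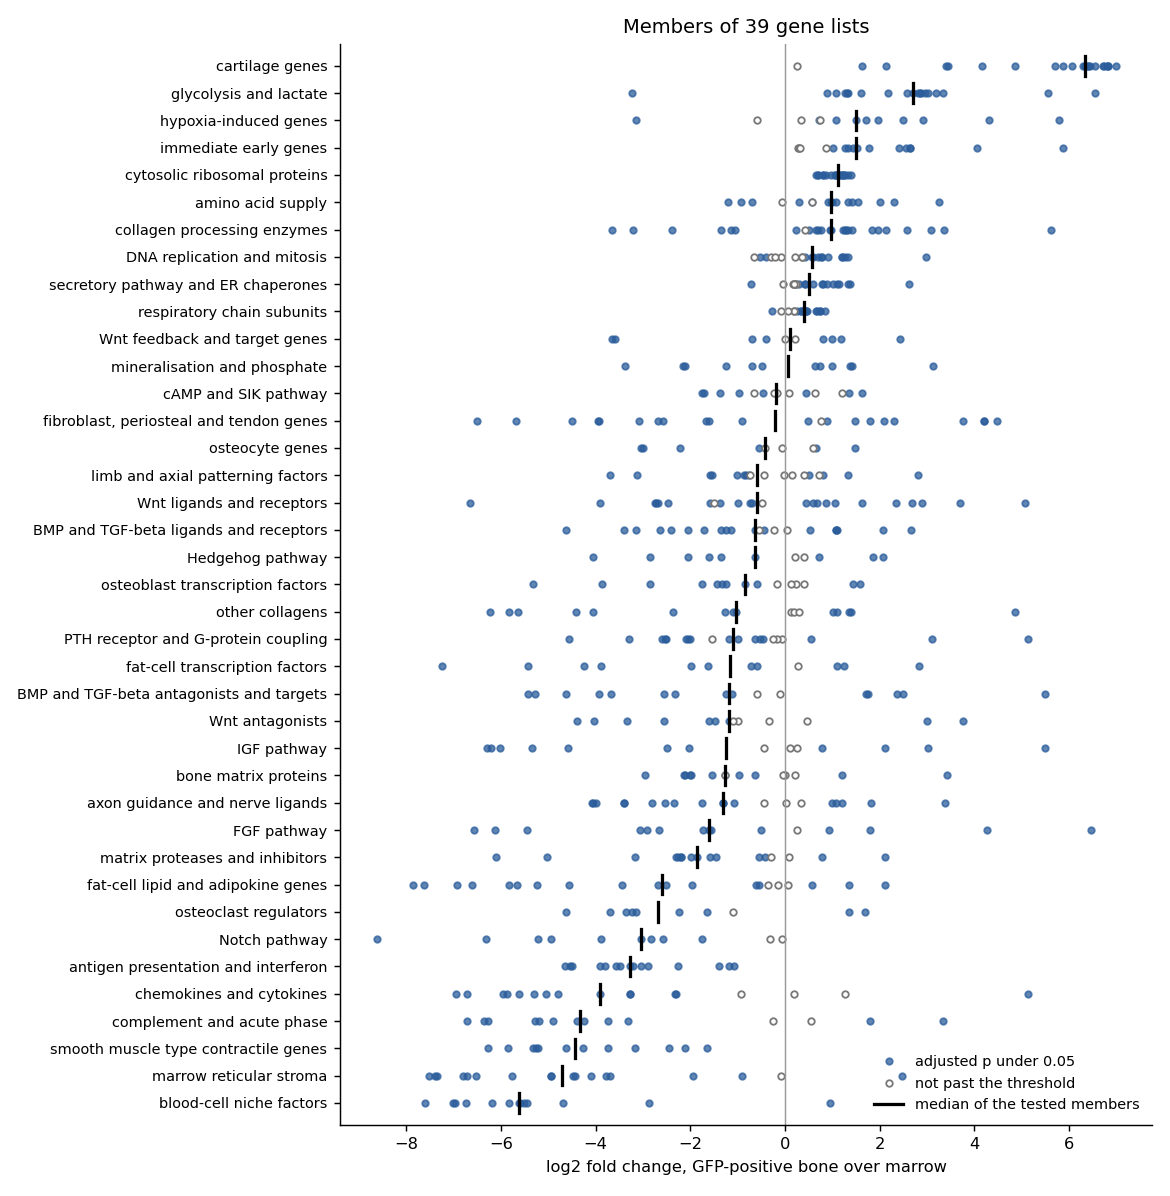
Log2 fold changes (GFP-positive bone over marrow, x axis) of the tested members of 39 gene lists (rows, ordered by median), filled where the adjusted p was under 0.05 and open otherwise, with the median as a bar. Cartilage genes sit at the top with a median of 6.34 and blood-cell niche factors at the bottom with -5.62.

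Most signalling pathways held both higher and lower members. In the PTH receptor list, 3 of 20 genes were higher and 13 lower. Beside Pth1r the higher ones were Pde4b, a phosphodiesterase that breaks down cAMP, with 591, 599 and 522 CPM in GFP-positive bone and 8.84, 17.9 and 26.2 CPM in marrow (5.12 ± 0.38), and Gnas, the stimulatory G protein (0.54 ± 0.08). Adenylyl cyclases Adcy3 (-2.05), Adcy6 (-2.52) and Adcy9 (-2.54), the kinase subunits Prkaca (-0.99) and Prkar1a (-0.63), and the coreceptor Ramp2 (-2.6) were lower. Pthlh, the ligand, had 0.127, 0 and 0.16 CPM in GFP-positive bone and 0.706, 2.52 and 4.99 CPM in marrow. These are 6 counts in all against 163, and the ratio of marrow over GFP-positive bone was 27.6 with a 95% exact counting interval of 12.4 to 76.3. The fitted log2 fold change was -4.57 ± 0.87, -5.63 without pair 1 and -3.82 without pair 2. In the cAMP and SIK list 3 of 14 were higher (21.4%) and 5 lower (35.7%), close to the shares of all genes. The higher count was 1 without pair 2 and 5 without pair 3. The list had a median of -0.20 that became 0.07 after the length correction. Sik1 and Sik2, kinases inhibited downstream of the receptor, were lower (-1.76 ± 0.37 and -1.38 ± 0.35), and Sik3 was higher (0.45 ± 0.12). The Sik2 call was lost without pair 2 (adjusted p = 0.0561) and the Sik3 call without pair 1 or pair 2 (adjusted p = 0.0668 and 0.103).

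Of 24 Wnt ligands and receptors tested, 11 were higher and 11 lower. Wnt5b, a ligand of cartilage, had 373, 409.7 and 418 CPM in GFP-positive bone and 63.7, 62.9 and 60.4 CPM in marrow (2.68 ± 0.08), and the receptor Fzd9 was higher as well (2.35 ± 0.11). Rspo2, which amplifies Wnt signals, had 0.762, 0.846 and 0.642 CPM in GFP-positive bone and 94.3, 45.1 and 98.7 CPM in marrow (-6.64 ± 0.25), and Ror1 was lower at -3.9 ± 0.24. Wnt antagonists were lower in 7 of 13 and higher in 2. The higher ones, Frzb (225, 232 and 209.6 CPM in GFP-positive bone and 23.5, 34.4 and 25.8 CPM in marrow, 3.01 ± 0.11) and Sfrp5 (3.76 ± 0.27), are secreted frizzled-related proteins, and so are the lower Sfrp4 (-4.4 ± 0.15) and Sfrp1 (-4.04 ± 0.12). Among feedback targets 4 of 10 were higher and 4 lower, and Axin2 did not pass, at or under 1.65 CPM in all 6 libraries. Higher calls there were Lef1, Lgr6, Znrf3 and Ccnd1, and without pair 1 only Lgr6 (2.43 ± 0.34) of these 4 passed. The higher count was 2 without pair 3, and the lower count 2 without pair 2 and without the replicate block.

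BMP and TGF-beta ligands and receptors were higher in 6 of 21 and lower in 12. Bmp2 had 199, 191 and 192 CPM in GFP-positive bone and 47.1, 42.7 and 48.3 CPM in marrow (2.08 ± 0.08), Bmp8a was higher at 2.66 ± 0.15, and Bmp6 was lower at -1.36 ± 0.18. Receptors Tgfbr3, Acvrl1 and Acvr2a were lower, at -4.62, -3.4 and -3.15, while Bmpr1a did not pass, with 80.8 to 94.96 against 75.4 to 92.3 CPM in GFP-positive bone and marrow. Among antagonists and targets 5 of 16 were higher and 9 lower. Nog, noggin, had 167, 215 and 200 CPM in GFP-positive bone and 3.4, 3.9 and 5.85 CPM in marrow (5.49 ± 0.15, adjusted p = 4.32e-07), Smad7 was higher (2.37 ± 0.13), and Fst, follistatin, was lower (-4.62 ± 0.16). The Id genes, direct BMP targets, split: Id1 (2.49 ± 0.27) and Id2 (1.76 ± 0.19) were higher and Id3 (-1.24 ± 0.08) and Id4 (-3.68 ± 0.17) lower.

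FGF receptors separated by group. Fgfr3, the receptor that restrains growth plate chondrocytes, had 692, 480 and 741 CPM in GFP-positive bone and 36.96, 27.9 and 33.5 CPM in marrow (4.27 ± 0.10, adjusted p = 2.4e-07). Fgfr2 went the other way, at 61.3, 54.2 and 38.98 CPM in GFP-positive bone and 453, 339 and 359.7 CPM in marrow (-2.91 ± 0.12), and Fgfr1 was slightly lower (-0.52 ± 0.12). The Fgfr1 call was lost without pair 2 (adjusted p = 0.0558) and after the length correction (adjusted p = 0.0624). The ligand Fgf7 and the feedback inhibitor Spry1 were lower, at -6.12 and -5.46. In all, 4 of 15 FGF genes were higher and 10 lower. IGF genes were higher in 4 of 14 and lower in 7, with binding proteins Igfbp4 (73.8 to 89.7 CPM in GFP-positive bone and 5372 to 7821 CPM in marrow) and Igfbp5 lower, at -6.3 and -6.03, and Stc2, an inhibitor of IGF release, higher at 5.5 ± 0.10. Notch genes were lower in 9 of 11 and higher in none, among them the receptor Notch3 (-6.31 ± 0.19), the ligand Jag1 (-3.9 ± 0.28) and the targets Heyl (-5.21 ± 0.15) and Hey1 (-3.05 ± 0.25). Hes1 did not pass, with 170 to 192 against 164 to 201 CPM in GFP-positive bone and marrow. Of 11 hedgehog pathway genes, 3 were higher and 6 lower. Gli1, the usual readout of the pathway, had 2.75, 5.52 and 3.42 CPM in GFP-positive bone and 0.997, 0.714 and 0.966 CPM in marrow (2.06 ± 0.43), and Gas1, a coreceptor, was lower (-4.05 ± 0.09).

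Glycolysis was higher almost throughout in GFP-positive bone. Of 19 genes, 18 (94.7%, against 29.7% of all genes) were higher and 1 lower, with a median of 2.70, and the counts were the same under every alternative run. Ldha, lactate dehydrogenase, had 4161, 4422 and 4116 CPM in GFP-positive bone and 526, 519 and 523 CPM in marrow (3.02 ± 0.10, adjusted p = 6.54e-07). Pgk1 (3.34 ± 0.08), Pkm (3.2 ± 0.10) and Eno1 (2.7 ± 0.10) were higher to a like degree, and Aldoc (6.55 ± 0.14) and the lactate exporter Slc16a3 (5.55 ± 0.14) more so. A pair of glucose carriers differed in direction. Slc2a1 was at 236, 276 and 239 CPM in GFP-positive bone and 45.2, 30.5 and 29.4 CPM in marrow (2.86 ± 0.16), and Slc2a3 was at 3.81, 2.14 and 1.98 CPM in GFP-positive bone and 32.5, 21.9 and 18.8 CPM in marrow (-3.22 ± 0.17). Of 13 hypoxia-induced genes, 9 were higher and 1 lower, the lower count being 1 or 2 over the alternatives run. Bnip3, a mitophagy receptor, had 648, 580.5 and 526 CPM in GFP-positive bone and 32.5, 30.04 and 26.1 CPM in marrow (4.31 ± 0.08). Hif1a, the oxygen-sensing factor that cartilage needs, was higher (1.08 ± 0.08), and Epas1, which encodes HIF-2 alpha, was the lower one (-3.14 ± 0.12).

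Ribosomal and respiratory genes differed far less per gene. All 20 cytosolic ribosomal protein genes were higher, by 0.66 (Rpl28) to 1.39 (Rpl5), also under every alternative run. Of 18 respiratory chain genes, 13 were higher and 1 lower, at a median of 0.40, and after a correction for exon length these were 9 and 2 with a median of 0.20. Log2 fold changes fell with exon length over all genes (Spearman rho -0.161 across genes, which are not independent replicates), with medians of 0.47 in the decile of shortest and -0.32 in that of longest exon length. Amino acid supply genes were higher in 12 of 17 and lower in 3. The carrier Slc7a5 (3.26 ± 0.11) and Asns, asparagine synthetase (2.31 ± 0.08), led, and the serine synthesis genes Phgdh and Psat1 were lower (-0.92 ± 0.10 and -0.69 ± 0.14). Of 20 secretory pathway genes, 13 were higher and 1 lower, among them Ddit3, which encodes the stress factor CHOP (2.61 ± 0.12), and the collagen cargo coat gene Sec23a (1.13 ± 0.09).

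Cell division genes were higher in 12 of 21 and lower in 2, at low levels. Ccnb1 had 52.8, 55.5 and 58.3 CPM in GFP-positive bone and 21.8, 24.3 and 20.6 CPM in marrow (1.32 ± 0.10), and Mki67 stayed under 2.5 CPM in all 6 libraries and did not pass. One member of that count is Cdkn1a, which halts the cycle, with 1286, 1131 and 1162 CPM in GFP-positive bone and 124, 172 and 159.9 CPM in marrow (2.98 ± 0.14). The licensing genes Mcm3 and Mcm5 were the lower ones, and both calls were lost without pair 1 or pair 2. The higher count of the list was 9 without pair 2 and 8 without pair 3, and the lower count without pair 3 was 3. Immediate early genes were higher in 12 of 16 and lower in none. Atf3, a stress factor, had 2088, 2184 and 2037 CPM in GFP-positive bone and 55.4, 105 and 359 CPM in marrow (4.05 ± 0.68), with marrow replicate 3 at the top of its group. Its call was lost without pair 2 (adjusted p = 0.0683), and without pair 1 or pair 3 the log2 fold change was 3.43 or 4.80. It did not pass with no filter on low counts (adjusted p = 0.0991). Fosl1 (5.87 ± 0.25), Ier2 (2.41 ± 0.17) and Klf2 (2.65 ± 0.28) were higher too, whereas Fos (0.28 ± 0.16), Jun (0.29 ± 0.16) and Egr1 (0.31 ± 0.13) did not pass. Egr1 passed as higher without pair 3 (adjusted p = 0.0248), in the fit of 9 control libraries (adjusted p = 0.0406) and with DESeq2 (adjusted p = 0.0269).

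Contractile genes of smooth muscle type were lower in all 12 tested, with a median of -4.44, and 1 marrow library stood apart in 3 of those named here. Acta2, smooth muscle actin, had 44.9, 38.9 and 27.8 CPM in GFP-positive bone and 416, 499 and 1887 CPM in marrow (-4.27 ± 0.74). Myh11, the smooth muscle myosin, had 0.381, 0.846 and 1.02 CPM in GFP-positive bone and 12.8, 36.6 and 169.6 CPM in marrow (-6.27 ± 0.39). Cnn1, calponin, had 0.551, 0.0891 and 0.321 CPM in GFP-positive bone and 6.23, 7.38 and 71.1 CPM in marrow (-5.86 ± 0.76). Marrow replicate 3 was the highest library for each of them, and without its pair the log2 fold changes were -3.45, -5.28 and -4.47. Without pair 1 they were -4.87, -6.57 and -7.45. Without pair 2 the Acta2 and Tpm2 calls were lost (adjusted p = 0.0559 and 0.079), as they were with no filter on low counts (adjusted p = 0.103 and 0.138). The pericyte gene Rgs5 followed the direction, with 6.73, 6.15 and 5.51 CPM in GFP-positive bone and 389.9, 614 and 716 CPM in marrow (-6.49 ± 0.24). Summed pericyte markers moved with this list, although 1 of the 6 was called higher (2.79) and 5 lower. Their part in it was not tested.

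Fibroblast, periosteal and tendon genes split, 10 higher and 11 lower of 22. The higher count was 7 without pair 2 and with no filter on low counts, and 8 without pair 1 and with library totals alone. Fmod, fibromodulin of cartilage and tendon, had 5482, 5298 and 5679 CPM in GFP-positive bone and 328, 243 and 324 CPM in marrow (4.21 ± 0.13). Postn, periostin, was higher (2.31 ± 0.21), and Fbln5, an elastic fibre protein, was lower (-6.51 ± 0.11), as were Tnc, tenascin C (-3.95 ± 0.12), and Fbn1, fibrillin 1 (-5.68 ± 0.21). Matrix proteases and inhibitors were lower in 13 of 17 and higher in 2, the inhibitors Timp1 (0.78 ± 0.10) and Timp3 (2.12 ± 0.23). After the length correction Timp1 no longer passed (adjusted p = 0.101). Mmp13, the collagenase of hypertrophic cartilage and bone, had 690.1, 378 and 384 CPM in GFP-positive bone and 2272, 2208 and 1924 CPM in marrow (-2.2 ± 0.17). Axon guidance and nerve ligand genes were lower in 12 of 20 and higher in 5, the higher count being 3 without pair 1. Sema3c, a secreted semaphorin that was higher, had 29.9, 26.9 and 37.5 CPM in GFP-positive bone and 1.29, 2.95 and 5.9 CPM in marrow (3.38 ± 0.34), while Nrp1, a semaphorin receptor, was lower (-2.81 ± 0.08). Limb and axial patterning factors were higher in 4 of 18 (22.2%) and lower in 8 (44.4%), with Prrx1 (-3.12 ± 0.13) and Prrx2 (2.81 ± 0.30), paired homeobox factors of the limb, in opposite directions.

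The 12 largest rises among genes of at least 20 CPM joined cartilage genes to genes better known from epithelia and muscle. Elf3, an ETS factor of epithelia, had 16.4, 31.2 and 21.3 CPM in GFP-positive bone and 0.083, 0.0476 and 0.161 CPM in marrow (adjusted p = 2.88e-06). These are 1486 counts in all against 6, a ratio of 244 with a 95% exact counting interval of 112 to 665. Foxa3, a forkhead factor, had 345, 398 and 382 CPM in GFP-positive bone and 3.36, 3.14 and 2.68 CPM in marrow (6.92 ± 0.12). Tnni2, fast muscle troponin I, had 75.99, 76.8 and 78.3 CPM in GFP-positive bone and 0.747, 0.428 and 0.429 CPM in marrow (7.13 ± 0.18). All 4 skeletal muscle markers tested were called higher, while the muscle creatine kinase gene Ckm was at 0 in all GFP-positive libraries. Syt8, a synaptotagmin, had 138, 175 and 170.5 CPM in GFP-positive bone and 1.33, 1.28 and 1.07 CPM in marrow (7.0 ± 0.14). Ucma and Cnmd, secreted proteins of cartilage, differed by 6.98 ± 0.12 and 6.83 ± 0.17. Pla2g10, Mall, Rtl3, Sfn, Fxyd3 and Fam180a completed the list, between 6.85 and 7.64.

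The 12 largest falls among genes of at least 20 CPM came to between -7.67 and -8.23. A member of the Notch list outside that rule had a lower fitted value, at -8.62. It rests on 1 count in all in GFP-positive bone against 524 in marrow. The ratio of marrow over GFP-positive bone was 532, with a 95% exact counting interval of 95.1 to 21100. Whether it fell further than the 12 is therefore not settled. Kng2, a kininogen, had 1.4, 1.87 and 1.02 CPM in GFP-positive bone and 465, 295 and 289.7 CPM in marrow (-7.91 ± 0.21, adjusted p = 6.14e-07). Kit, the receptor for stem cell factor, had 0.0847, 0.0891 and 0.0535 CPM in GFP-positive bone and 21.6, 16.4 and 36.05 CPM in marrow, 5 counts in all against 1537, and the ratio of marrow over GFP-positive bone was 312 with a 95% exact counting interval of 134 to 963. Cfd, the adipokine adipsin, had 0.466, 0.713 and 0.374 CPM in GFP-positive bone and 34.8, 207 and 156 CPM in marrow (-7.85 ± 0.33). P2rx1, an ATP-gated channel, had 0.339, 0.134 and 0.0535 CPM in GFP-positive bone and 11.8, 23.3 and 149 CPM in marrow (-7.96 ± 0.71), and without pair 3, which holds its highest marrow value, it differed by -6.09. Cnnm1, Cbln1, Fmo2, Wdr86, Ms4a4d, Sult1a1 and Col6a5 were among the others. Every one of the 24 genes was separated between the groups, since the naming rule asked for it.

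**Figure D4:**
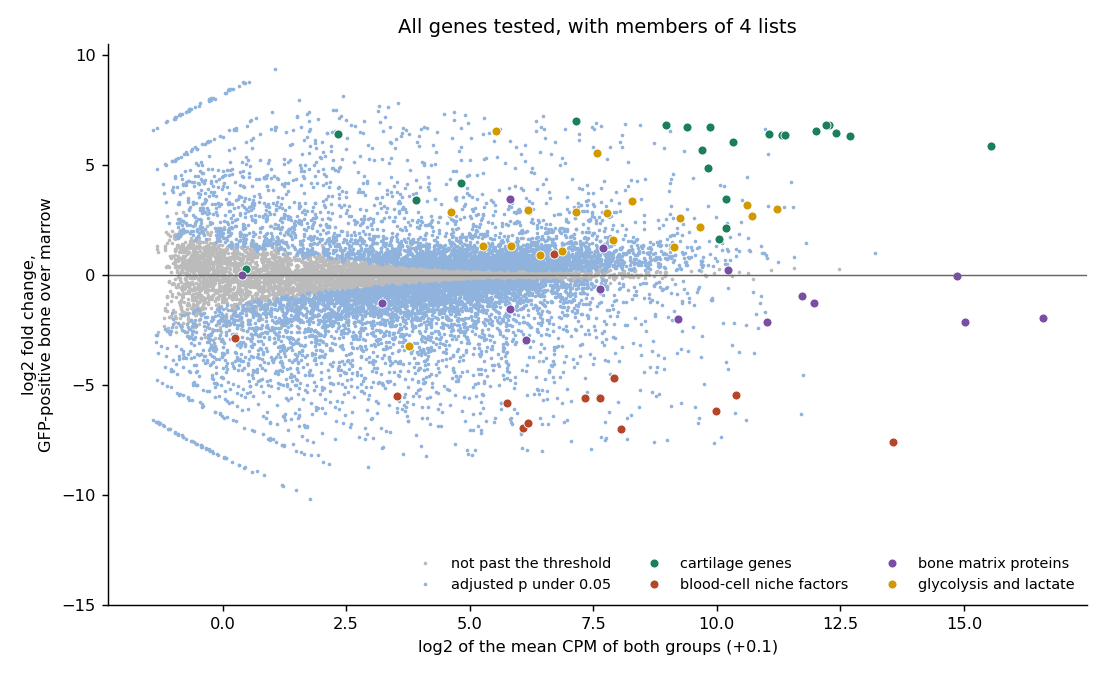
Log2 fold change (GFP-positive bone over marrow) against the log2 mean CPM of both groups for the 14100 genes tested, with members of 4 lists in colour. Cartilage (green) and glycolysis (yellow) genes lie above 0 but for 1 glycolysis gene, and niche factors (red) below but for Ptn.

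GFP-negative, Tm-positive bone cells of the control genotype, 3 further libraries, were set beside both groups on 1 common scale, as a description. Cxcl12 had 96.7, 127 and 129 CPM in GFP-positive bone, 1325, 1337 and 952 CPM in GFP-negative bone and 27990, 20540 and 20630 CPM in marrow. Col2a1 had 85270, 80780 and 103200 CPM in GFP-positive bone, 24920, 28710 and 34510 CPM in GFP-negative bone and 1338, 1847 and 1426 CPM in marrow. For both genes the GFP-negative bone libraries lay between the others, without overlap. The same order of means held for all 22 cartilage genes called higher and for all 12 niche factors called lower. Of 16 reticular stroma genes called lower, it held for 15. Bone matrix did not follow that order. Col1a1 was highest in GFP-negative bone, with 48600, 38420 and 28310 CPM in GFP-positive bone, 250000, 255800 and 226100 CPM in GFP-negative bone and 119600, 176000 and 153900 CPM in marrow. Of 9 bone matrix genes called lower in GFP-positive bone than in marrow, 7 had their highest mean in GFP-negative bone.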

How the data were processed

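Raw read counts per gene were deposited by the authors, with gene ID, position, strand and exon length per the file headers, and gene names came from a table that pairs the IDs with symbols. STAR, featureCounts, DESeq2 and the build mm10 are named, without versions, in the submitters' processing notes. Settings for strand and multimapping were not given in the sources used here. Overlapping, antisense and near-identical genes are thus uncertain. Per the labels' protocols, RNA came from an RNeasy Plus Micro kit, cDNA from SMART-Seq v4 and libraries from SMARTer ThruPLEX reagents. Groups came from the titles. From the counts, edgeR 4.0.16 in R 4.3.3 fitted group and replicate number on 6 libraries (TMM, filterByExpr with minimum count 10 and total 15, quasi-likelihood F-test, two-sided, Benjamini-Hochberg over all 14100 genes, threshold 0.05, 2 residual degrees of freedom). The SE is the log2 fold change divided by the square root of F. The comparison, its pairing, the members and the gene lists were chosen with earlier results of these data known. The naming rule took Sp7, Pth1r, the 12 largest rises and falls (at least 20 CPM in the higher group, no overlap), up to 5 members per list by p, and other list members with their values. No libraries were merged, since those of a group differed by more than sampling noise (chi-square over its degrees of freedom, 15.5 to 50.7). Without molecular identifiers, intervals and limits reflect counting error alone. The fit was run on simulated counts with far fewer changed genes than here and a built-in replicate effect. That run does not cover the conditions of these data. Alternatives were no block, 9 or 18 libraries, other scalings, DESeq2 1.42.0, no filter, a length correction and leaving out each pair. Promoters came from RefSeq on GRCm38.p6. Some genes that the rule takes are not reported here.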

Additional observations from a re-analysis of the deposited data

How the results depend on the processing

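The counts of genes called stayed within 1.5 times of 8692 under all 11 alternatives run, between 7187 without pair 2 and 9391 in a fit of 18 libraries. Without the replicate block 8871 genes were called, 8506 of them (97.9% of the 8692) shared and in the same direction. Same-number libraries deviated together at r = 0.0651, 0.0991 and 0.0975, under the 0.1 asked for, so the labels' numbers are not shown to pair the libraries. Each library correlated best with its own number, which is a hint from the data, not the design. Y-linked genes were near 0 in replicate 3 of both groups. Xist was highest there, at 11 CPM in marrow and 1.35 CPM in GFP-positive bone, as shares of the library total. The part of this in the genes for which marrow replicate 3 stood apart was not tested. Library totals alone called 8673 genes and shifted the median log2 fold change by -0.10, and DESeq2 called 8329. The length correction shared 91.3% of the calls, turned 7 calls and took Ndufa1, a short respiratory chain gene, to -0.0203, the only turn among the 269 genes taken by the naming rule; the cause was not tested. Depth limits low genes, and 2 residual degrees of freedom limit the spread estimate.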

Other observations

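Levels of the called members of 4 lists were also set as a share of the group where each list was high, as a description with no test. On the common scale of 9 control libraries, the 22 cartilage genes called higher had a median of 1.23% of their GFP-positive level in marrow (range 0.79 to 33.2%) and of 28.6% in GFP-negative bone (range 18.7 to 72.2%). Glycolysis genes called higher had medians of 14.8% in marrow and 38.2% in GFP-negative bone. Niche factors called lower had a median of 1.86% of their marrow level in GFP-positive bone (range 0.51 to 14.3%) and of 8.32% in GFP-negative bone (range 5.23 to 47.3%). Bone matrix genes called lower had a median of 25.7% of their marrow level in GFP-positive bone and 163% in GFP-negative bone.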
